A study of Homo sapiens with 5 samples.

Results

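The 10 human genes of iron storage, uptake and export described here across 5 nanopore cDNA libraries are FTH1, FTL, NCOA4, TFRC, STEAP3, SLC11A2, SLC40A1, HMOX1, ACO1 and IREB2. They were chosen by name for their roles, with earlier results of these data known, and they are 10 of the 61220 genes to which the transcripts could be assigned. The libraries came from NCI-H1975 and HCC827, established human lung adenocarcinoma cell lines grown separately in RPMI medium with fetal calf serum, and the labels name no drug or genetic change. RNA of one preparation of each line was combined by mass, so that HCC827 made up 0, 25, 50, 75 or 100% of it, and a name such as 75:25 gives the NCI-H1975 part first. The poly(A) fraction was copied to cDNA, amplified by PCR and sequenced on a PromethION. Each ratio had 1 library, so 2 RNA preparations are compared, and how far separate cultures of a line would differ was not measured.

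Per the labels, synthetic spike-in transcripts (sequins) were added to both RNAs, as mix A in the NCI-H1975 RNA and as mix B in the other. The 100:0 library held 5475 sequin reads and the 0:100 library, labelled as carrying mix B, held 0. Sequins were not used for scaling. Library totals ran from 2932250 to 4058751 reads. The mean length of the transcripts to which reads were assigned fell from 2579 bases in the 100:0 library to 2180 in the 0:100 library, and the share of reads from mitochondrial genes rose from 5.64% to 8.85%. Of the epithelial and lung adenocarcinoma markers, EPCAM lay between 371 and 397 CPM (reads scaled to a common library size, with TMM normalisation) in all 5 libraries, while KRT7, KRT18, KRT19 and NKX2-1 rose and brought the sum of the 5 from 4759 to 13688 CPM. The leukocyte marker PTPRC and the erythroid genes HBA1, HBA2, HBB and ALAS2 had 0 reads in every library, which allows up to 3 reads in each.

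Iron that enters a cell through the transferrin receptor is reduced, moved to the cytosol and either used, stored in ferritin or exported by ferroportin. Iron regulatory proteins, encoded by ACO1 and IREB2, bind a hairpin called the iron responsive element (IRE) when iron is scarce. Bound in the 5′ untranslated region (UTR), as in the ferritin mRNAs, they block translation, and bound in the 3′ UTR of TFRC they protect the mRNA from decay. Ferritin is therefore regulated to a large part after transcription, and mRNA levels such as these do not measure the protein.

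The hairpin was searched in the GENCODE v44 transcripts (GRCh38) as an unpaired C, 5 bases of stem, the loop CAGTGN and 5 bases that pair with the first stem, with G-T pairs allowed. A looser form allowed 1 unpaired base in the second strand of the stem. The sites found in UTRs of these genes are shown because they divide the members into 5′ and 3′ IRE genes. Each is a window of 30 bases, 5′ to 3′ on the mRNA strand, with the loop in capitals.
FTH1 5′ UTR, chr11:61967573-61967602, minus strand: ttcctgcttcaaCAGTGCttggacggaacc
FTL 5′ UTR, chr19:48965335-48965364, plus strand: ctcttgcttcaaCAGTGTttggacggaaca
SLC40A1 5′ UTR, chr2:189580660-189580689, minus strand: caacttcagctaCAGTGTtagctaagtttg
TFRC 3′ UTR, chr3:196050978-196051007, minus strand: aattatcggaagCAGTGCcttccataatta
TFRC 3′ UTR, chr3:196050574-196050603, minus strand: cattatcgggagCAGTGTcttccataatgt
TFRC 3′ UTR, chr3:196050509-196050538, minus strand: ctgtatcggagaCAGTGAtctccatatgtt
TFRC 3′ UTR, chr3:196050462-196050491, minus strand: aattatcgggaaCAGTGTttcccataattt
SLC11A2 3′ UTR, looser form, chr12:50988268-50988297, minus strand: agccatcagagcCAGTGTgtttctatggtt
IREB2 3′ UTR, looser form, chr15:78500969-78500998, plus strand: catttgctttcaCAGTGAtgagtgagagga

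The strict form was found in the UTRs of 222 of 19901 genes with an annotated UTR (1.12%), 41 of them in a 5′ UTR and 181 in a 3′ UTR. The looser form was found in 376 genes (1.89%), so a single match of that kind, such as the one in IREB2, is a description of letters and not a known site. Neither form was found in the UTRs of ACO1, HMOX1, NCOA4 or STEAP3. In the ferritin mRNAs the loop began close to the transcript start, after 44 bases in FTH1-201 and 38 bases in FTL-201. In TFRC-201 the 4 loops began 950, 1354, 1419 and 1466 bases after the end of the coding part. In SLC11A2-202 the loop began 43 bases after it.

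**Figure D1:**
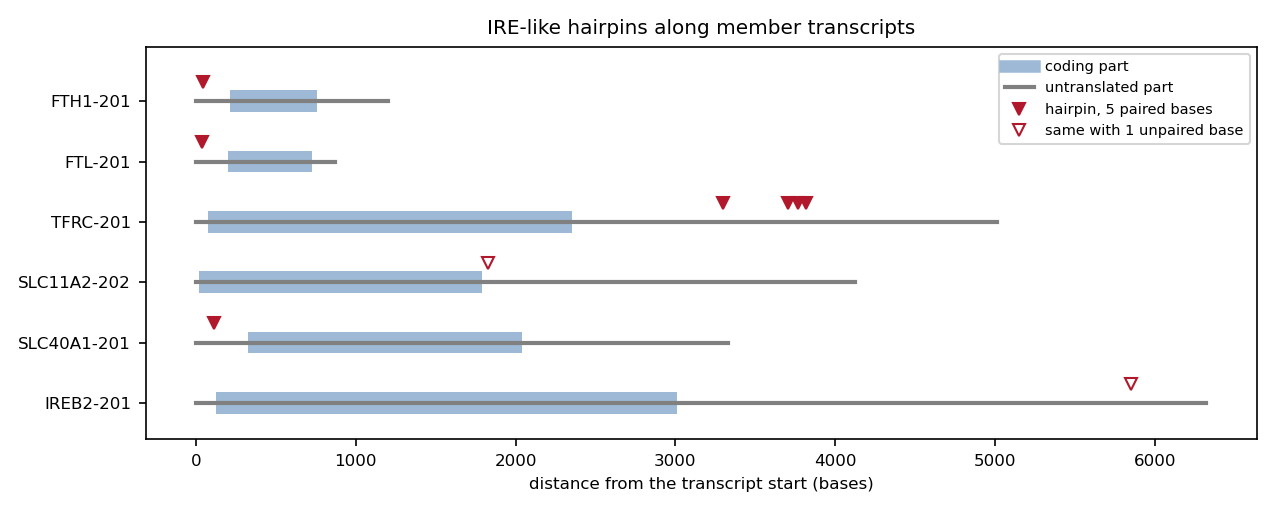
Position of the IRE-like hairpins along the most-read transcript of each gene that carries one in a UTR, in bases from the transcript start; thick blue bars are coding parts and triangles mark the first base of the loop. FTH1, FTL and SLC40A1 carry it ahead of the coding part, and TFRC (4 copies), SLC11A2 and IREB2 (open triangles, looser form) after it.

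Along the series, haem oxygenase, the transferrin receptor, the ferritin receptor NCOA4 and the exporter SLC40A1 fell as the HCC827 share grew, while ACO1 and the ferritin light chain FTL rose. The test was the edgeR quasi-likelihood slope of expression on the HCC827 mass fraction, fitted over 13492 genes with TMM scaling and Benjamini-Hochberg adjustment. Slopes are given as log2 changes over the whole series, with a positive sign where HCC827 RNA was higher. Of the 10 members, 6 passed an adjusted p of 0.05, 2 rising and 4 falling, beside 45.8% of all genes tested (23.5% rising and 22.3% falling). FTH1, SLC11A2, STEAP3 and IREB2 did not pass. In all, 5 members stood in strict order over the 5 libraries (FTL, TFRC, SLC40A1, HMOX1 and ACO1), beside 28.5% of all genes. Between the pure libraries, 3 members were at least 2-fold apart (HMOX1, SLC40A1 and TFRC), beside 34.6% of all genes. The median slope of the members was -0.42 and that of all genes was -0.0347. Scaling by library totals alone moved these medians to -0.826 and -0.44, so directions below are relative to the bulk of genes that TMM centres on.

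**Figure D2:**
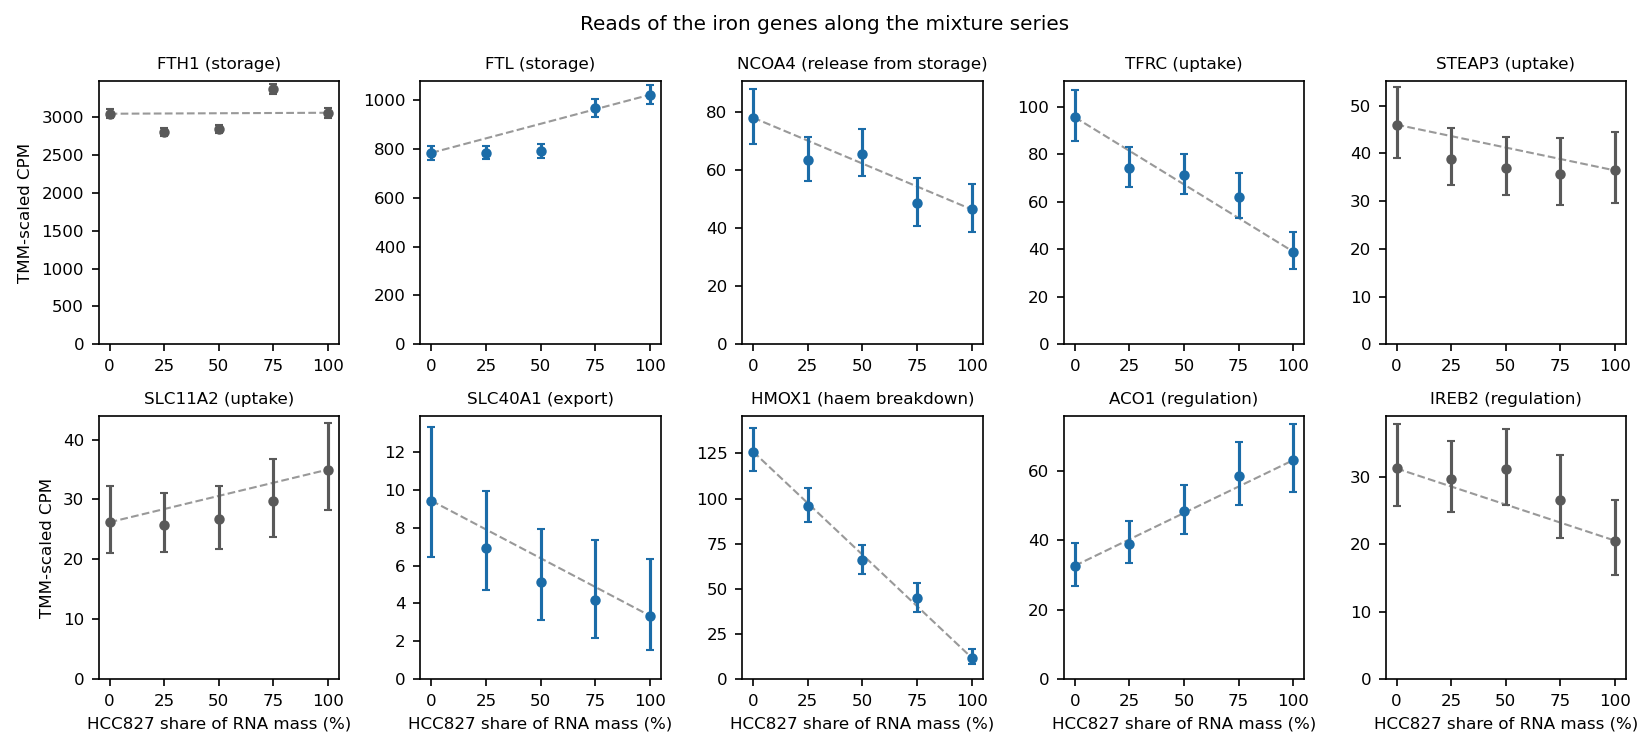
TMM-scaled CPM of each gene (vertical axis, from 0) against the HCC827 share of RNA mass in %, 1 point per library with its 95.0% Poisson interval; blue marks slopes with adjusted p under 0.05 and the dashed line joins the pure libraries. HMOX1 falls from 126 to 11.9 CPM close to the line, and FTH1 stays between 2808 and 3369.9 CPM with no order.

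The ferritin heavy chain FTH1, the ferroxidase subunit of the storage shell (ENSG00000167996, chr11:61959718-61967634, minus strand), was the most abundant member. Its level was 3046, 2808, 2844, 3369.9 and 3059 TMM-scaled CPM from 100:0 to 0:100, from 8226 to 12120 reads per library. The 25:75 library was the highest, and the pure libraries differed by a log2 ratio of 0.0062 (95.0% interval -0.036 to 0.048, counting error only). The edgeR slope was 0.11 ± 0.11 (SE, adjusted p = 0.425). Its sign turned with the scaling and the reads counted: it was -0.30 with library totals (adjusted p = 0.0312, edgeR), -0.15 with a trend on gene length removed, and -0.0068 with the reads of FTH1 pseudogenes added.

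Reads of FTH1 could not be separated with certainty from those of a processed pseudogene and of a gene on the other strand. FTH1P10, on chr5:17353695-17354624, held 5688, 7065, 6470, 4054 and 3941 reads, more than FTL in every library. Its 930-base transcript aligned to FTH1-201 over 932 columns with 94.6% identity (42 mismatches and 8 gap positions), of which 13 mismatches lay in the FTH1 coding part. Even a gapless stretch of 60 coding bases, chosen for holding the most mismatches, differed at only 4 positions. The 4 differing bases are in capitals.
FTH1, chr11:61964796-61964855, minus strand: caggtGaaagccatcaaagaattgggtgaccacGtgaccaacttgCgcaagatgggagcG
FTH1P10, chr5:17353942-17354001, minus strand: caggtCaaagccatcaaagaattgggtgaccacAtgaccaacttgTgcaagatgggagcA

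BEST1-202, a transcript of the bestrophin gene on the opposite strand, has a last exon (chr11:61962255-61965515) that covers 880 of the 1203 bases of FTH1-201 and 3 of its 4 exons. It held 4002, 4911, 4603, 3111 and 2946 reads, which were 99.1% of the 19747 reads of BEST1. Whether the counting used strand was not given in the sources used here. Of the reads on FTH1, FTH1P10 and BEST1-202 together, FTH1P10 took 28.4, 29.3, 29.2, 24.1 and 26.1% from 100:0 to 0:100. BEST1-202 took 20.0, 20.4, 20.8, 18.5 and 19.5% of them. Both shares were lowest in the 25:75 library, where FTH1 was highest. Summed over the 3, the levels were 5900.2, 5582, 5686, 5874 and 5619.5 CPM, and the edgeR slope of the sum was -0.027 (adjusted p = 0.806). Every other FTH1 pseudogene had at most 12 reads over the series (FTH1P2).

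**Figure D3:**
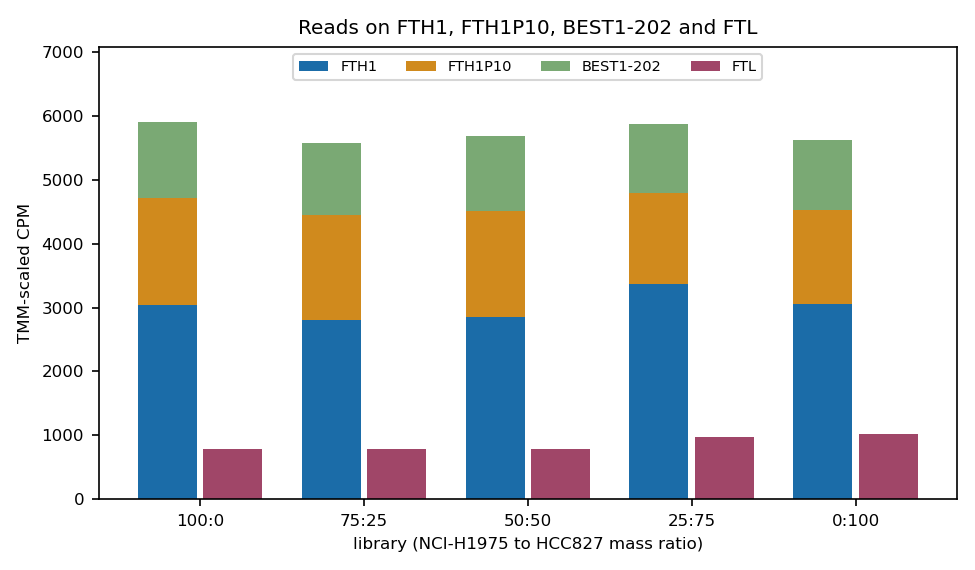
TMM-scaled CPM on FTH1, FTH1P10 and BEST1-202 (stacked) and on FTL (separate bar) in each library. The stacked sum stays between 5582 and 5900.2 CPM, and FTL rises from 784 to 1022 CPM.

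The ferritin light chain FTL (ENSG00000087086, chr19:48965309-48966879, plus strand) helps the shell to form its mineral core. Its level was 784, 785, 792, 966 and 1022 CPM, from 2661 to 3387 reads per library. The first 3 libraries lay within each other's counting intervals, and the step up lay between 50:50 and 25:75. The slope was 0.43 ± 0.12 (SE, edgeR adjusted p = 0.00902), and the pure libraries differed by a log2 ratio of 0.38 (95.0% interval 0.31 to 0.46). FTL has a single transcript in the table, and its pseudogenes held few reads (18 on FTLP14 and 7 on FTLP3). The call ended under library totals (slope 0.018, with a pure-library log2 ratio of -0.03) and with the length trend removed (0.15, edgeR adjusted p = 0.328). It also ended without the 0:100 library (slope 0.37, edgeR adjusted p = 0.0771). With 2 libraries set against 2 it ended too (log2 difference of the groups 0.34, edgeR adjusted p = 0.154). That setting treats libraries of unlike ratios as replicates. It called 2291 of 13251 genes in all, against 6175 of 13492 with the slope. Its 871-base transcript is short, and the mean transcript length of the libraries moved with the HCC827 share as given above. Whether length had a part in the rise of FTL was not tested.

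The ratio of the subunits within a library does not depend on scaling. FTH1 reads per FTL read were 3.89, 3.58, 3.59, 3.49 and 2.99 from 100:0 to 0:100, and the 95.0% Wilson intervals of the pure libraries (3.72 to 4.05 and 2.87 to 3.12) did not overlap. With FTH1P10 and BEST1-202 reads counted as FTH1 the ratio was 7.53, 7.11, 7.18, 6.08 and 5.50. The light chain thus took a larger part of ferritin reads in the HCC827 RNA under both counts. FTH1 and FTL together made up 0.443, 0.382, 0.365, 0.403 and 0.355% of all reads.

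NCOA4 (ENSG00000266412, chr10:46005088-46030623, minus strand) is the cargo receptor that carries ferritin to lysosomes, where its iron is released. Its level was 78.1, 63.5, 65.7, 48.6 and 46.5 CPM (265, 274, 256, 139 and 125 reads). It fell by 0.75 ± 0.16 on the log2 scale (SE, edgeR adjusted p = 0.00261), 1.68-fold between the pure libraries. In counting error 100:0 overlapped 75:25 and 50:50, 75:25 overlapped 50:50 and 25:75, and 25:75 overlapped 0:100, while the pure libraries did not overlap. With 100:0 and 75:25 set against 25:75 and 0:100 the call ended (log2 difference of the groups -0.57, edgeR adjusted p = 0.0595). Fewer of all genes were called in that setting, as given for FTL. NCOA4-207 held 81.1% of the gene's reads and NCOA4-204 10.8%, and both fell in the transcript test (slopes -0.66 and -1.66, edgeR adjusted p = 0.00989 and 0.00496).

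TFRC, the receptor that takes up transferrin-bound iron (ENSG00000072274, chr3:196012511-196082153, minus strand), stood at 95.7, 74.4, 71.3, 62.2 and 39.0 CPM. These were 325, 321, 278, 178 and 105 reads. It fell by 1.08 ± 0.18 on the log2 scale (SE, edgeR adjusted p = 0.000329), and the 100:0 library was 2.45-fold above the 0:100 library (log2 ratio -1.29, interval -1.63 to -0.97). The fall was in order over the 5 libraries. With 100:0 and 75:25 set against 25:75 and 0:100 the log2 difference of the groups was -0.75 and the call ended (edgeR adjusted p = 0.0715). Here too that setting called fewer of all genes than the slope did. Of its reads, 97.6% lay on transcripts that carry the IRE hairpins printed above. TFRC-201 (50.5% of reads) and TFRC-203 (43.2%) fell alike in direction, with slopes of -1.28 and -0.92 (edgeR adjusted p = 0.000180 and 0.00329).

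STEAP3, the reductase that converts iron in the transferrin endosome (ENSG00000115107, chr2:119223831-119265652, plus strand), stood at 46.0, 38.9, 37.0, 35.7 and 36.4 CPM (156, 168, 144, 102 and 98 reads). The 100:0 library was the highest and the other 4 lay within each other's intervals. The slope of -0.33 ± 0.18 did not pass (SE, edgeR adjusted p = 0.159). With library totals it was -0.74 and passed (edgeR adjusted p = 0.00477). STEAP3-201 and STEAP3-203 held 44.3% and 43.0% of the reads, and neither passed the transcript test.

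SLC11A2 encodes DMT1, the transporter that moves ferrous iron out of the endosome (ENSG00000110911, chr12:50979401-51028566, minus strand). Its level was 26.2, 25.7, 26.7, 29.7 and 35.0 CPM (89, 111, 104, 85 and 94 reads). The slope of 0.42 ± 0.21 did not pass (SE, edgeR adjusted p = 0.116), and the pure-library log2 ratio of 0.41 had an interval from -0.019 to 0.85. SLC11A2 is known for transcripts that end with or without an IRE, and its reads were split between both kinds. Transcripts that carry the hairpin outside a coding part held 66.3, 64.9, 52.9, 64.7 and 51.1% of its reads from 100:0 to 0:100. The 95.0% Wilson intervals of the pure libraries, 56.0 to 75.3% and 41.1 to 60.9%, overlapped. SLC11A2-229 (24.6% of reads) lacks the hairpin, and SLC11A2-202 (21.9%) and SLC11A2-201 (19.3%) carry it. None of the 3 passed the transcript test.

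SLC40A1 encodes ferroportin, the known iron exporter of animal cells (ENSG00000138449, chr2:189560590-189583758, minus strand). It was the least abundant member, with 32, 30, 20, 12 and 9 reads (9.43, 6.95, 5.13, 4.19 and 3.35 CPM). The levels fell in order, although neighbouring libraries overlapped in counting error. The slope was -1.51 ± 0.45 (SE, edgeR adjusted p = 0.0155), and the pure-library ratio was 2.82-fold with a wide interval (log2 -2.75 to -0.39). At these counts the call was lost with DESeq2 (adjusted p = 0.0773) and with 2 libraries set against 2 (edgeR adjusted p = 0.0964). It was also lost without the 100:0 library (edgeR adjusted p = 0.155) and without the 0:100 library (edgeR adjusted p = 0.0589). Each of these settings called fewer of all genes than the main fit did. SLC40A1-201, which carries the 5′ IRE, held 97.1% of the reads.

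HMOX1, the inducible haem oxygenase that frees iron from haem (ENSG00000100292, chr22:35380361-35394214, plus strand), differed most among the members. Its reads were 429, 415, 257, 128 and 32, or 126, 96.1, 66.0, 44.7 and 11.9 CPM. No counting interval overlapped that of a neighbouring library. It fell by 2.68 ± 0.30 on the log2 scale (SE, edgeR adjusted p = 2.08e-05), and the 100:0 library was 10.6-fold above the 0:100 library (log2 ratio -3.41, interval -3.98 to -2.89). The slope understates this ratio because a mixture is linear in expression and not in its logarithm. It ranged from -3.21 to -2.00 when 1 library was left out, the smallest without the 0:100 library. HMOX1-201 held 99.5% of the reads.

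On a linear scale a mixed library should lie between the pure ones in proportion to its RNA. HMOX1 lay 26.4, 52.8 and 71.3% of the way from the 100:0 to the 0:100 level at 25, 50 and 75% HCC827 mass, with counting SDs of 5.71, 4.49 and 4.0 percentage points. All 3 were within 1 counting SD of the mass share. Library totals gave 32.4, 58.9 and 77.0%, beside 32.7, 55.4 and 78.2% for the HCC827 share of reads estimated over 10010 other genes. ACO1 lay at 21.1, 51.8 and 85.3% with wider SDs of 13.2, 15.0 and 20.2 points, which included the mass share. TFRC lay at 37.7, 43.0 and 59.1% (SDs 9.70, 9.68 and 9.90), above the mass share at 25% and below it at 75%. NCOA4 lay at 46.2, 39.2 and 93.3% (SDs 15.8, 16.8 and 17.9), more than 1 SD above the mass share at 25% and 75%. SLC40A1 lay at 40.7, 70.6 and 86.1%, with SDs of 24.3 points or more. For IREB2 the SDs were 34.3 points or more.

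Of the regulators, ACO1 rose and IREB2 did not pass. ACO1 encodes the protein that acts as cytosolic aconitase with an iron-sulfur cluster and as an iron regulatory protein without it (ENSG00000122729, chr9:32384603-32454769, plus strand). It stood at 32.7, 39.1, 48.5, 58.7 and 63.2 CPM (111, 169, 189, 168 and 170 reads), in order. The slope was 0.99 ± 0.17 (SE, edgeR adjusted p = 0.000407), and the 0:100 library was 1.93-fold above the 100:0 library (log2 ratio 0.95, interval 0.60 to 1.31). ACO1-201 (51.5% of reads) and ACO1-202 (36.9%) rose, with slopes of 0.80 and 1.19 (edgeR adjusted p = 0.0113 and 0.00185). ACO1-203 (11.5%) had a slope of 0.67 and did not pass.

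IREB2, the iron regulatory protein that is controlled by degradation when iron is plentiful (ENSG00000136381, chr15:78437431-78501453, plus strand), stood at 31.2, 29.7, 31.1, 26.6 and 20.5 CPM (106, 128, 121, 76 and 55 reads). The 0:100 library was the lowest, and the slope of -0.51 ± 0.23 did not pass (SE, edgeR adjusted p = 0.0838). With library totals it was -0.91 and passed (edgeR adjusted p = 0.00451). IREB2-201 held 93.4% of the reads and did not pass the transcript test (slope -0.52, edgeR adjusted p = 0.0972). Reads of ACO1 per read of IREB2, a ratio chosen after the values were seen and free of scaling, were 1.05, 1.32, 1.56, 2.21 and 3.09. The 95.0% Wilson intervals of the pure libraries, 0.803 to 1.37 and 2.28 to 4.18, did not overlap.

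**Figure D4:**
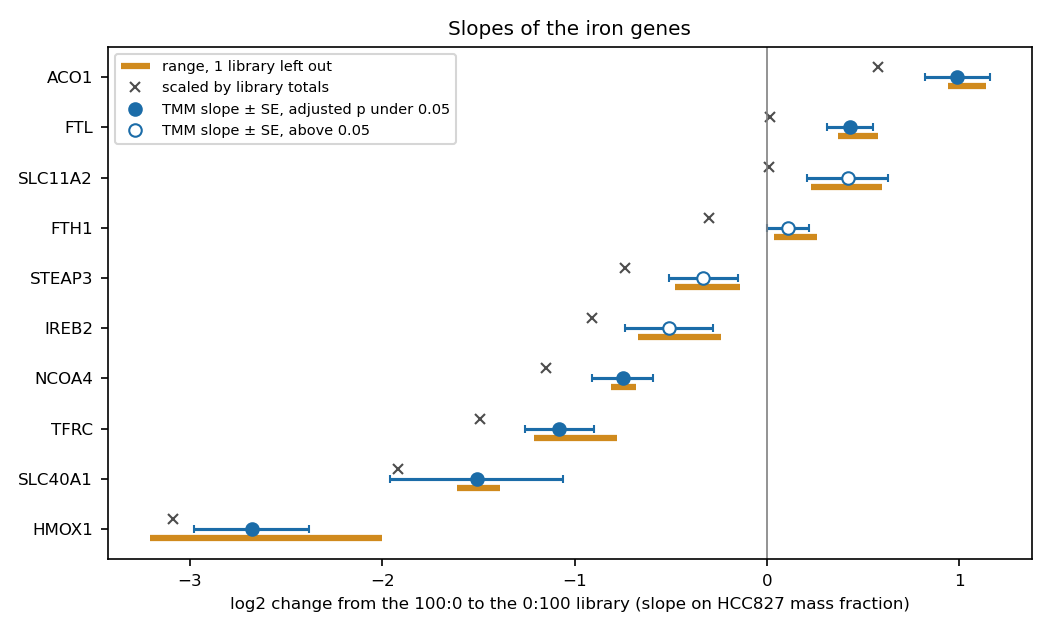
Fitted slope of each gene (horizontal axis, log2 scale, not the ratio of the pure libraries) with its SE. The orange bar is the range when 1 library is left out, and the cross is the slope under library totals. HMOX1 (-2.68) and ACO1 (0.99) mark the ends, and FTH1 changes sign under library totals (0.11 against -0.30).

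Levels between genes were compared per kilobase of transcript, using each gene's mean transcript length weighted by reads. In the 100:0 library FTH1 (2709.9 CPM per kb) and FTL (900) were followed by HMOX1 (81.5), NCOA4 (23.1), TFRC (19.9), STEAP3 (12.0), SLC11A2 (6.92), ACO1 (5.86), IREB2 (5.11) and SLC40A1 (2.80). NCOA4 and TFRC overlapped in counting error there, as did SLC11A2, ACO1 and IREB2. In the 0:100 library FTH1 stood at 2722 and FTL at 1174 CPM per kb. NCOA4 (13.7), ACO1 (11.3), STEAP3 (9.55), SLC11A2 (9.23), TFRC (8.10) and HMOX1 (7.67) then followed, each overlapping the next, ahead of IREB2 (3.35) and SLC40A1 (0.995). On this scale HMOX1 moved from the third place to the eighth. The division assumes that longer transcripts give more reads, which was not tested for these cDNA reads. In CPM without it, TFRC (95.7) lay above NCOA4 (78.1) in the 100:0 library. In the 0:100 library ACO1 (63.2) then lay above NCOA4 (46.5), and HMOX1 (11.9) lay below IREB2 (20.5).

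Of 95 member transcripts in the table, 61 had reads, 29 were tested and 10 passed the edgeR slope test, 3 rising and 7 falling, beside 33.6% of all transcripts tested. FTH1-204, with 0.338% of the gene's reads, was the one FTH1 transcript that passed (slope -1.06, edgeR adjusted p = 0.0489). FTH1-201 held 74.6% of FTH1 reads and had a slope of 0.088. Isoform usage could be tested in 6 members (FTH1, TFRC, SLC11A2, ACO1, NCOA4 and STEAP3) with diffSpliceDGE of edgeR. None of the 6 passed (0 calls), beside 0.416% of all genes tested, a share so low that a count of 0 says nothing particular about these genes. FTH1 had an unadjusted p of 0.0318 in that test, the one member under 0.05, and the gene-level F test also called 0 (unadjusted p = 0.0404 for FTH1 and 0.0364 for NCOA4).

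Of the 3 fibroblast markers, COL1A1 and COL1A2 fell along the series, and COL1A1 held 1573 of their 1830 reads. The summed level of COL1A1, COL1A2 and COL3A1 was 185, 139, 104, 61.9 and 7.06 CPM from 100:0 to 0:100. COL1A1 went from 532 to 19 reads and COL1A2 from 96 to 0, while COL3A1 had 1 read in the series. Endothelial markers PECAM1 and VWF held 10 and 6 reads. How the collagen reads relate to the members' falls was not tested.

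Beside the members, 50 other genes of iron handling were examined in 6 roles; 42 could be tested and 21 passed, 10 rising and 11 falling, beside the 45.8% of all genes given above. With library totals the split was 5 rising and 15 falling of 42, beside 1813 rising and 5074 falling of all 13492 genes tested. Another 5 genes had 0 reads in every library: HAMP, the hormone hepcidin, HJV, a bone morphogenetic protein co-receptor, HEPH, the ferroxidase hephaestin, FTMT, mitochondrial ferritin, and SCARA5, a ferritin receptor.

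Of 8 tested genes of transferrin and iron uptake or reduction, 1 rose and 3 fell, beside 23.5% and 22.3% of all genes. LCN2, a secreted protein that binds iron-loaded siderophores, had 5 reads in the 100:0 library and 1530, 2503, 2873 and 3835 in the others. Its slope was 4.73 ± 1.16 (SE, edgeR adjusted p = 0.00506), and the 0:100 library was 968-fold above the 100:0 library (log2 ratio 9.92, interval 8.70 to 11.54). STEAP1, a relative of STEAP3, fell from 51.0 to 21.2 CPM (slope -1.33 ± 0.24, edgeR adjusted p = 0.000706). Of 3 tested genes of the hepcidin axis and of control of the regulatory proteins, HFE, a partner of the transferrin receptors, fell (slope -2.26 ± 0.77, edgeR adjusted p = 0.0282). Its reads were 21, 16, 20, 6 and 1, so it met the read minimum only through the libraries where it was high. Its pure-library log2 ratio was -2.47 with counts under 3 raised to 3 (interval from the counts -9.43 to -1.42) and -0.73 with a floor of 10 reads.

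Of 3 tested chaperones and ferroxidases, 2 rose and 1 fell, beside 23.5% and 22.3% of all genes. PCBP1, which delivers iron to ferritin, rose from 140 to 249 CPM (slope 0.74 ± 0.14, edgeR adjusted p = 0.00114), and its relative PCBP2 rose from 468 to 690 CPM (slope 0.56 ± 0.11). CP, the ferroxidase ceruloplasmin, fell from 22.1 to 8.55 CPM (slope -1.05 ± 0.35, edgeR adjusted p = 0.0276). Of ferritin turnover 2 genes were tested and both fell, beside 22.3% of all genes. HERC2, a ubiquitin ligase of NCOA4, had a slope of -0.63 ± 0.24 (edgeR adjusted p = 0.0418). PROM2, which promotes ferritin export, had a slope of -0.61 ± 0.18 (edgeR adjusted p = 0.0123).

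Among 12 genes of mitochondrial iron and iron-sulfur clusters, 3 rose and 1 fell, beside 23.5% and 22.3% of all genes. CIAO2B, of the cytosolic iron-sulfur assembly machinery, rose from 64.5 to 138 CPM (slope 1.11 ± 0.14, edgeR adjusted p = 5.80e-05).

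Of 14 genes of haem synthesis, breakdown and transport, 4 rose and 3 fell, beside 23.5% and 22.3% of all genes. FLVCR2, a transporter first described for haem, had 16, 22, 11, 8 and 0 reads (slope -2.37 ± 0.87, edgeR adjusted p = 0.0400). It too met the read minimum only through the libraries where it was high, and with a count of 0 the slope depends on the prior count of the fit. Against a floor of 3 reads it was at least 4.23-fold lower in the 0:100 library (log2 ratio -2.08, or -0.34 with a floor of 10 reads). BLVRA, the biliverdin reductase that acts on the product of haem oxygenase, had 96.9, 66.5, 55.7, 38.1 and 26.0 CPM. It fell in order as HMOX1 did (slope -1.81 ± 0.17, edgeR adjusted p = 6.22e-06). HMOX2, the constitutive haem oxygenase, had 63.3, 56.1, 64.9, 57.7 and 70.3 CPM and did not pass (slope 0.14 ± 0.17).

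**Figure D5:**
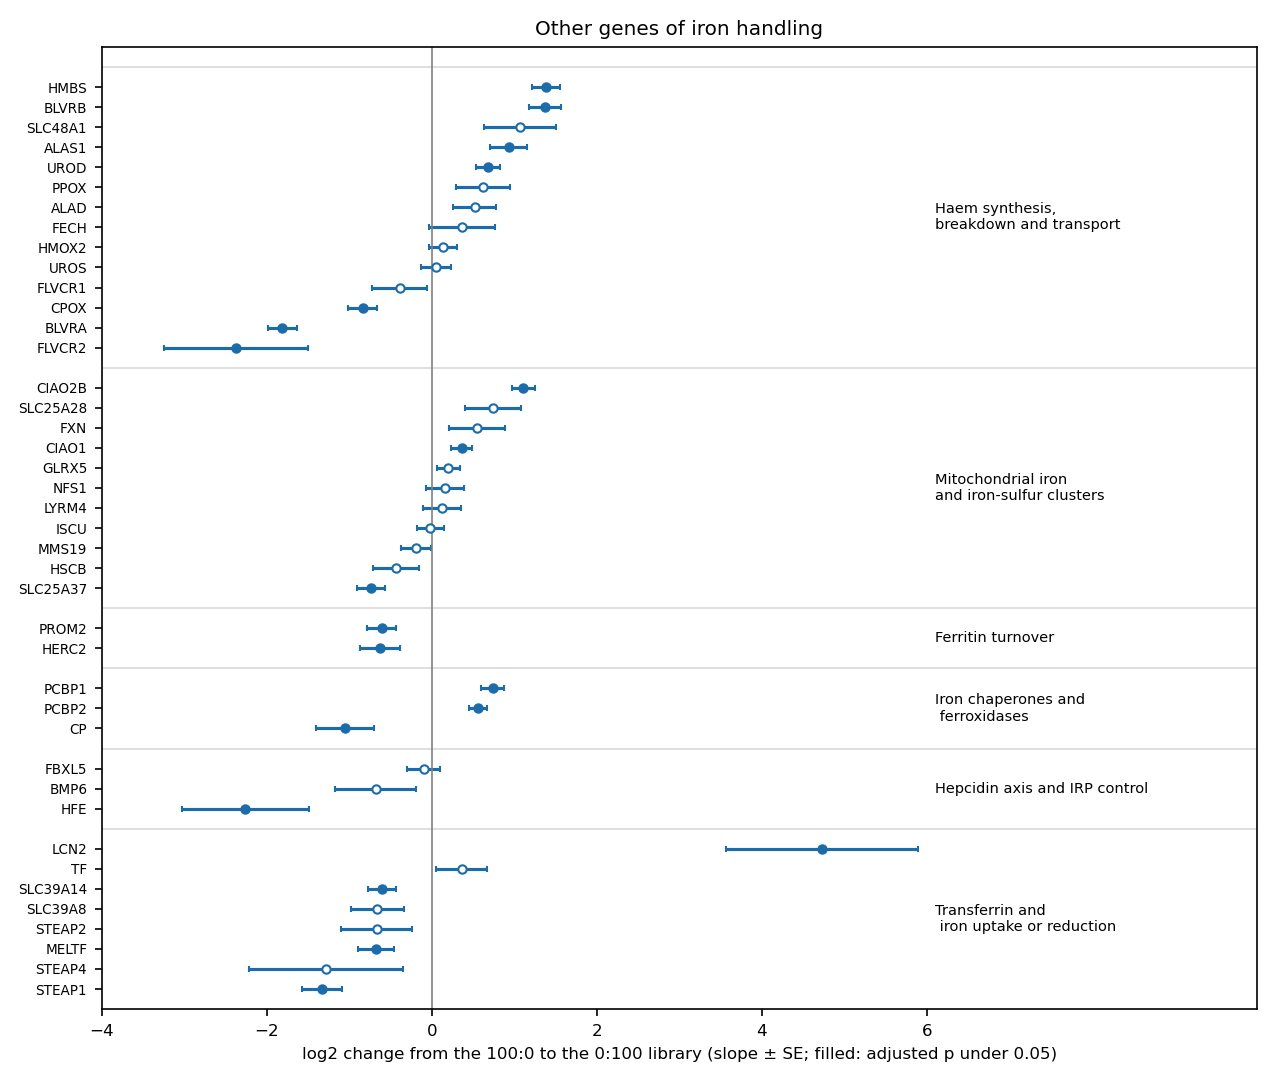
Fitted slopes (log2 scale, ± SE, not ratios of the pure libraries) of the tested other genes of iron handling, all but 1 of 42, grouped by role. Filled points have an adjusted p under 0.05. LCN2 (4.73) lies to the right of all others, and FLVCR2 (-2.37) and HFE (-2.26), both with few reads, lie farthest to the left.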

How the data were processed

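Each library's deposited table gives, for every transcript, its length and the estimated count of reads, with no scaling. Minimap2 2.24, Salmon 1.9.0 and the GRCh38 build are named in the submitters' processing notes; the annotation release, how similar transcripts shared reads and the use of strand were not given in the sources used here. The 2 values that were not whole were rounded and 161 identifiers listed a second time were summed. Transcripts were assigned to genes by GENCODE v44 (98.6% of human reads matched), and 84 of 95 member transcripts had the same length in both. Transcript length, as deposited, gave values per kilobase.

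Genes with 10 or more reads in 2 or more libraries were tested. Slopes were fitted with edgeR 4.0.16 in R 4.3.3 (quasi-likelihood, TMM on all reads), and p-values were adjusted by Benjamini-Hochberg over all genes. The SE printed or drawn with a slope was not an output of edgeR. It was worked back from the reported slope and its test result, so it is not a separate measure of error. The coefficient of variation that edgeR calls biological was 9.11%. Here it measured scatter of the libraries around the fitted slopes, not spread between cultures. DESeq2 1.42.0 was an alternative. The HCC827 share of reads was the weight of the 0:100 profile that best fitted each mixed library, over genes holding 50 or more reads in the 100:0 and 0:100 libraries, with a pseudocount of 0.5. Poisson, binomial and Wilson intervals (95.0%) cover counting error only, since PCR copies could not be told apart. The gene slope fit was also run on simulated counts. Its outcome is not given here, so that run says nothing about the accuracy of the calls.

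The members and gene lists were chosen with earlier results of these data known. All members are named. Of the other iron genes, the text names in each role at most 2 passing genes with the largest slopes and those with 0 reads; PCBP2, BLVRA's companion HMOX2 and the marker genes were named beside them after their values were seen. Transcripts with at least 10% of their gene's reads or a call are named. Of the other iron genes that this rule would name, 1 is not reported here and not drawn.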

Additional observations from a re-analysis of the deposited data

How the results depend on the processing

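Directions and calls of HMOX1, ACO1 and SLC11A2 (not called) held in all 14 alternatives run for each. With 100:0 and 75:25 set against 25:75 and 0:100, libraries of unlike ratios served as replicates. There 2 of 10 members (1 rising, 1 falling), 8 of 42 other iron genes and 2291 of 13251 genes in all passed. The main slope fit called 6175 of 13492 genes. TFRC, NCOA4, FTL and SLC40A1 lost their calls, and the cause was not tested. Leaving out 1 library left 4 to 6 of 10 members called. Of all genes, between 4067 of 13352 (without 0:100) and 5860 of 13251 (without 50:50) were called. Among transcripts, 6 of 27 from members and 6290 of 31239 in all were called without the 0:100 library. Without the 50:50 library these were 10 of 26 and 10175 of 30359. Each count was lowest without the 0:100 library. DESeq2 called 5 of the 29 member transcripts tested and 6072 of all 31758, against 10 and 10660 with edgeR. The cause was not tested. FTH1 had slopes of -0.30 with library totals, -0.15 with the length trend removed, -0.0068 with pseudogene reads added and -0.027 with FTH1P10 and BEST1-202 reads added, the last chosen after seeing the data. Library totals called 8 of 10 members (1 rising, 7 falling) and 6887 of 13492 genes. Of these genes 1813 rose and 5074 fell, against 3169 and 3006 with TMM. SLC40A1 had no value where 10 reads were required in every library. No paired analysis was possible because each ratio had 1 library. The depth limits SLC40A1, with 103 reads in all, most among the members.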
